A study of Mus musculus with 378 samples.

Results

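Pancreatic islets whose RNA held much or little of the immediate early transcripts were compared. For each islet library a score was taken as the mean of 6 z-scores, those of Fos, Egr1, Ier2, Nr4a1, Btg2 and Zfp36, computed within each sex from the authors' deposited variance-stabilised values, which are on a log2-like scale. The 94 libraries with the highest scores form the high-score group and the 94 with the lowest form the low-score group, 1 in 4 of all libraries each, and the remaining 190 libraries of the series lie between them. The groups were thus chosen by measured RNA levels of these 6 genes, not by a treatment, and the 6 score genes are described below without a test and left out of every count.

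The high-score group held 43 female and 51 male mice and the low-score group 49 female and 45 male mice. All were mice of the Diversity Outbred stock, bred so that no pair of animals has the same mosaic of founder genomes, and each library came from a different animal. Both groups shared the same high-fat, high-sugar diet (45% fat), and the labels give no age, no drug and no engineered allele. By its title the series concerns genetic influences on islet function. Sex comes from the sample titles, which also number the mice, and the numbers were divided into 4 bands of 100 starting at 21, since counts differ between bands. The labels do not say what distinguishes the bands. The bands held 25, 22, 25 and 22 high-score libraries and 23, 25, 24 and 22 low-score libraries.

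Immediate early genes are switched on within minutes of a stimulus, without new protein synthesis, and their RNAs decay quickly. Calcium, cyclic AMP and MAP kinase signals act on factors already present in the cell, such as CREB and the serum response factor SRF. In islet cells they are known to respond to glucose, incretin hormones and membrane depolarisation, and also to the handling of tissue. Many of the first products are transcription factors of the AP-1, EGR, KLF and NR4A families, and others, such as dual-specificity phosphatases and ZFP36 proteins, shut the response down again.

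The score ran from 0.609 to 2.41 in the high-score libraries (median 0.943) and from -2.52 to -0.599 in the low-score libraries (median -0.970). The nearest libraries outside the groups had scores of 0.606 and -0.597, so the groups are the ends of a continuous range and not separate classes. Fos, which encodes an AP-1 subunit, spanned 36.3, 130 and 288.1 CPM (counts scaled to a common library total; lowest, median, highest) in high-score libraries and 11.1, 35.2 and 92.7 CPM in low-score libraries. Egr1, a zinc finger factor gene, spanned 64.05, 137.9 and 262.4 CPM in high-score libraries and 13.5, 47.7 and 171.6 CPM in low-score libraries. The orphan nuclear receptor gene Nr4a1 had medians of 108.9 CPM in high-score and 36.4 CPM in low-score libraries, and Ier2, an early response regulator gene, 23.04 and 9.67 CPM. The medians of Btg2, an antiproliferative gene, were 197.5 CPM in high-score and 129.1 CPM in low-score libraries, and those of Zfp36, which encodes a protein that destabilises AU-rich RNAs, 73.5 and 37.4 CPM. All 6 genes overlapped between the groups, and these values are what chose the groups. Over all libraries, which share the deposited scaling, the Pearson correlation between pairs of the 6 genes ran from 0.456 for Btg2 and Zfp36 to 0.863 for Fos and Egr1.

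The score, built from the deposited values, went with neither depth nor mouse order. Total counts ran from 17.4 M to 68.8 M in high-score libraries (median 35.8 M) and from 15.1 M to 49.9 M in low-score libraries (median 35.03 M). The score's Pearson correlation with the log2 total count was 0.0118 over all libraries, and with the score of the next mouse number of the same sex 0.0101. Median scores in bands 1 to 4 were -0.132, -0.111, 0.0793 and -0.00378. Differences between bands appear to be removed from the deposited values, so these correlations and medians cannot show whether depth or band affected the counts. At like deposited values, Ier2 had higher CPM in band 4 than in the other bands. Most band 4 libraries also had lower total counts. Whether a score from unadjusted counts goes with depth or band was not tested. The 18 beta cell genes together, the islet's defining transcripts, took a median of 157821 CPM in high-score and 151522 CPM in low-score libraries, with ranges that overlapped almost fully.

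**Figure D1:**
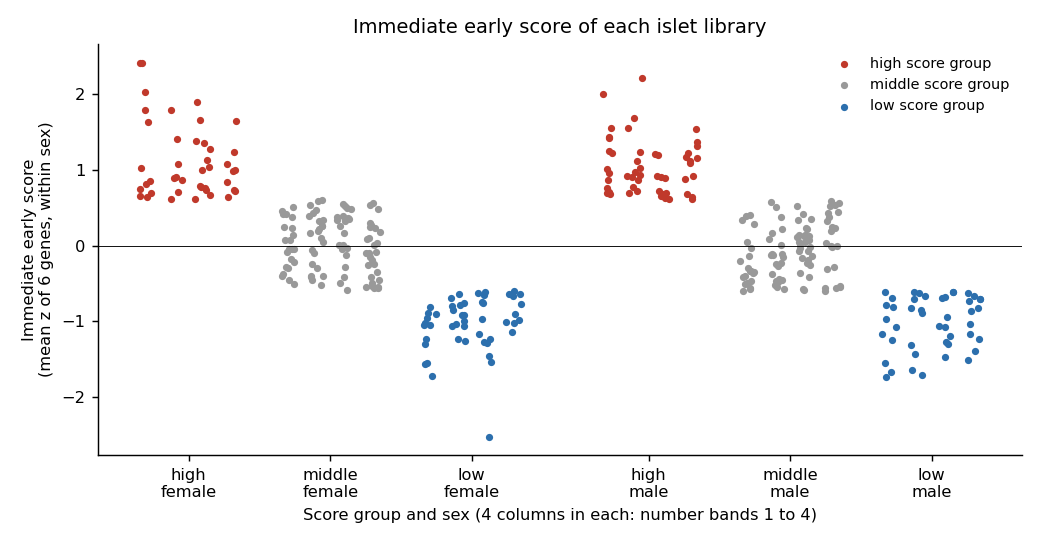
Immediate early score of each library (vertical axis, mean z of 6 genes within sex), by score group and sex, with 4 columns in each for number bands 1 to 4. High-score libraries lie at 0.609 or above and low-score libraries at -0.599 or below, and every band of both sexes contributes to both groups.

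Promoters of 6 genes that rose in the high-score group are printed here because they carry the elements through which early and heat shock genes are classically switched on. Each is the 250 bases before the RefSeq start (GRCm38.p6), 5′ to 3′ on the gene's own strand. Capitals mark the cyclic AMP response element (CRE, TGACGTCA), the TATA box (TATAAA), the EGR site (GCGGGGGCG), the heat shock element core (GAANNTTC, added after the data were seen) and the CArG box that SRF binds, each searched on both strands. The AP-1 site (TGAGTCA) was searched too and is in none of these 6. The GC box (GGGCGG) was counted but not capitalised. An EGR site and a GC box can share bases, as can a TATA box and a CArG box. Dusp1, which encodes a MAP kinase phosphatase, holds a CRE at bases -143 to -136, and Errfi1, an EGF receptor feedback inhibitor gene, holds one at -51 to -44 with a TATA box at -28 to -23. The gene of SRF itself holds CArG boxes at -82 to -73 and -62 to -53, an EGR site and a TATA box on the other strand, and the phosphatase gene Dusp5 holds 2 adjoining CArG boxes. Fosb, an AP-1 subunit gene, holds an EGR site at -50 to -42, and the inducible heat shock protein 70 gene Hspa1a holds a heat shock element core at -104 to -97. A match is a description of the letters, not evidence of a bound site.
Dusp1 (chr17:26508473-26508722, minus strand): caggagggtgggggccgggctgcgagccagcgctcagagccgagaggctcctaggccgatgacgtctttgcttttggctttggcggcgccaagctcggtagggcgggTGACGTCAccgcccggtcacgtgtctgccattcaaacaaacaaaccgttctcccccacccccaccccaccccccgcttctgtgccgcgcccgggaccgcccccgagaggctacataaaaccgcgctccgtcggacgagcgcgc
Errfi1 (chr4:150854820-150855069, plus strand, the second of 2 starts): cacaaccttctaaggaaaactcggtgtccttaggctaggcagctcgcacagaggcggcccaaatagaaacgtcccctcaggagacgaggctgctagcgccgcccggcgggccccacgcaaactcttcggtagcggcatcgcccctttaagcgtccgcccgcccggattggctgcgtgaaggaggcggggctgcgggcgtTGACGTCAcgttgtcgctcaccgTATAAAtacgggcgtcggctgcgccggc
Srf (chr17:46556163-46556412, minus strand): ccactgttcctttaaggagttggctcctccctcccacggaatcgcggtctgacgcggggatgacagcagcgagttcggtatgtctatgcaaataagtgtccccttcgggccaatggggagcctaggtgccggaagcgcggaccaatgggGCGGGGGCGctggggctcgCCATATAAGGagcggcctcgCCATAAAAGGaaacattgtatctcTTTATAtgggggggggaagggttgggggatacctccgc
Dusp5 (chr19:53528895-53529144, plus strand): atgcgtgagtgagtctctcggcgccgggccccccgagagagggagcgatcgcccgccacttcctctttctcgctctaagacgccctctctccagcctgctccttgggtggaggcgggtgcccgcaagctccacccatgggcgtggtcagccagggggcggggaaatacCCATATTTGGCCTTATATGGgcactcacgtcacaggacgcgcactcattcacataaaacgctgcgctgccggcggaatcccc
Fosb (chr7:19310046-19310295, minus strand): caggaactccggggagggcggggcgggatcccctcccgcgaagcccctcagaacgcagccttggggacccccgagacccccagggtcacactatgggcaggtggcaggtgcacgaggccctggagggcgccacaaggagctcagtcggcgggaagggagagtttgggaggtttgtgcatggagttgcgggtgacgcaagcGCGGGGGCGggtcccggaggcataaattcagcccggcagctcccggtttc
Hspa1a (chr17:34972157-34972406, minus strand): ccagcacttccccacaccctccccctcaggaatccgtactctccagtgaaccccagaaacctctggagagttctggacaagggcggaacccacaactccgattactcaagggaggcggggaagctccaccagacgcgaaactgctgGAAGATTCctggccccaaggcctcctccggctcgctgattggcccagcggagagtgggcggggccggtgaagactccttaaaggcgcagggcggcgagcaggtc

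Across the transcriptome the high-score and low-score groups differed in many genes, mostly by little. Of 16904 genes tested, 7789 (46.1%) passed an adjusted p of 0.05 by edgeR's quasi-likelihood test with Benjamini-Hochberg adjustment, with sex and band as covariates. Of these, 3847 (22.8% of those tested) were higher in the high-score group and 3942 (23.3%) lower. The median absolute log2 difference over all tested genes was only 0.104, and the median itself was -0.0013. Differences of at least 1.5-fold were lopsided, with 449 genes higher (2.66%) and 47 lower (0.278%). With close to 1 gene in 2 passing, a count of list members that pass means little without its direction and size, and the medians below stand beside the background median near 0. Of the 7789 genes, 6857 (88.03%) pointed the same way when the 4 bands were fitted one by one, and so did 51.3% of all tested genes. Single bands called 11.9%, 14%, 15.4% and 11.8% of their tested genes. In bulk tissue, a change in how many cells of a type were present and a change in RNA per cell cannot be told apart.

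All 10 other AP-1 genes rose in the high-score group, with a median log2 difference of 1.03. AP-1 is a dimer of FOS, JUN and ATF family proteins. Fosb had 10.8, 136.5 and 559 CPM in high-score libraries (lowest, median, highest), against 4.23, 23.9 and 222.97 CPM in low-score libraries. This was a 4.62-fold rise, the largest of any named gene (log2 2.21, SE 0.143, adjusted p = 3.16e-32). In the deposited values 93 of 94 high-score libraries were above the low-score median and 50 above the highest low-score library. Atf3, a stress-induced member of the ATF family, had 19.4, 78.8 and 203.6 CPM in high-score and 9.02, 23.9 and 99.9 CPM in low-score libraries. It was 3.11-fold higher (log2 1.64, SE 0.0988, adjusted p = 2.08e-35), and all 94 high-score libraries lay above the low-score median. Jun, whose counts were fractional in every library and so are less certain, was 2.28-fold higher with medians of 133.5 CPM in high-score and 56.8 CPM in low-score libraries, and Fosl2 was 2.22-fold higher. Maff (0.91) and Jund (0.89) rose by less on the log2 scale.

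Junb, a JUN family gene, shows how the bands enter the counts. In bands 1 to 3 it had 22.8, 50.6 and 157.96 CPM in 72 high-score libraries and 6.37, 18.8 and 76.6 CPM in 72 low-score libraries. In band 4 its level was several-fold higher in both groups, at 270, 357.6 and 494 CPM in 22 high-score libraries and 118.9, 178.9 and 213.2 CPM in 22 low-score libraries, and there the groups did not overlap. The fitted rise was 2.64-fold (log2 1.40, SE 0.0907, adjusted p = 3.16e-32), and it was 1.53, 1.64, 1.37 and 1.05 on the log2 scale in bands 1 to 4 alone. The C/EBP factor gene Cebpd behaved alike, with medians of 12.97 CPM in high-score and 5.07 CPM in low-score libraries of bands 1 to 3, of 147.3 and 73.6 CPM in band 4, and a fitted 2.63-fold rise.

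The zinc finger and nuclear receptor factors rose as well. Of 12 other EGR, KLF and NR4A genes 11 could be tested, and all 11 were higher in the high-score group, with a median log2 difference of 0.70. The Krüppel-like factor gene Klf2 had 0.256, 2.67 and 25.7 CPM in high-score libraries and 0.131, 0.733 and 6.96 CPM in low-score libraries. It was 3.30-fold higher (adjusted p = 4.42e-24), although its level was low. Nr4a2, an orphan nuclear receptor gene related to Nr4a1, had 3.35, 13.5 and 55.5 CPM in high-score and 2.09, 5.36 and 14.6 CPM in low-score libraries. It was 2.50-fold higher (log2 1.32, SE 0.0986, adjusted p = 1.47e-26), with 51 of 94 high-score libraries above the highest low-score one in the deposited values. Nr4a3 (log2 1.14), Egr3 (1.22), Klf4 (0.70) and Klf6 (0.67) rose too. The level of Egr3 was near 1 CPM, with medians of 1.07 CPM in high-score and 0.464 CPM in low-score libraries.

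Among 30 further early response genes 28 rose and 0 fell, with a median log2 difference of 0.55. Gem, which encodes a small GTPase that restrains voltage-gated calcium channels, had 22.6, 79 and 207.1 CPM in high-score libraries and 8.94, 27.3 and 58.8 CPM in low-score libraries. It was 2.999-fold higher (log2 1.58, SE 0.0784, adjusted p = 3.85e-45), and 71 of 94 high-score libraries lay above the highest low-score library in the deposited values. The activity-regulated gene Arc, known from neurons, was 2.65-fold higher, with medians of 14.1 CPM in high-score and 5.28 CPM in low-score libraries. Csrnp1, an AXIN1-induced nuclear protein gene, had medians of 97.99 CPM in high-score and 43.1 CPM in low-score libraries, a 2.30-fold rise. The growth arrest genes Gadd45g (2.03-fold) and Gadd45b (1.98-fold), the activity-dependent factor gene Npas4 (1.91-fold), the clock gene Per1 (1.79-fold) and the G protein regulator gene Rgs2 (1.77-fold) rose in the same libraries. So did Sik1 (log2 0.76), a salt-inducible kinase gene and CREB target, and Ier3 (0.74), an early response gene tied to cell survival. Named members of a list other than its 4 with the smallest adjusted p, and other genes outside the 15 largest differences in each direction, were mostly chosen after their values were seen.

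The genes that limit the response were raised together with it. Of 18 MAP kinase and RNA decay feedback genes 17 rose and 0 fell, with a median log2 difference of 0.58. Dusp1 had 36.5, 61.1 and 122.5 CPM in high-score libraries and 12.6, 32.3 and 64.9 CPM in low-score libraries. Its rise was 1.92-fold (log2 0.94, SE 0.0416, adjusted p = 4.48e-51), and in the deposited values 87 of 94 high-score libraries exceeded every low-score library, the highest such count among the genes named here. Socs3, an inhibitor of cytokine signalling, had 73.6, 150.7 and 345.2 CPM in high-score and 29.5, 74.6 and 205.6 CPM in low-score libraries, a 1.98-fold rise. Errfi1, whose promoter is printed above, had medians of 169.3 CPM in high-score and 90.6 CPM in low-score libraries, and was 1.91-fold higher. The Ras-like GTPase gene Rasd1 was 2.06-fold higher, and Dusp4 (log2 0.87), Dusp5 (0.82) and the sprouty gene Spry4 (0.66) also rose.

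**Figure D2:**
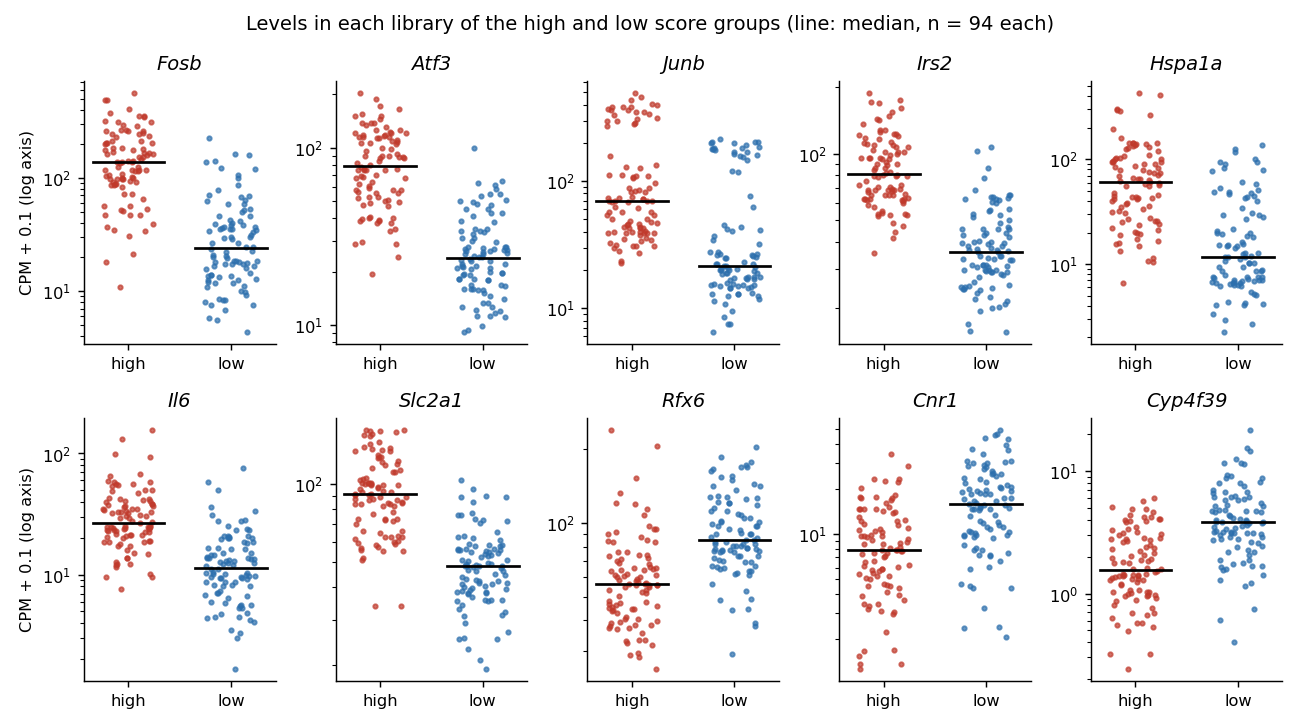
CPM (log axis) of single genes in each library of the high-score group (left) and the low-score group (right), with the median as a line. Medians are higher in the high-score group for the early and heat shock genes, while the points of both groups overlap.

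Targets of CREB, the cyclic AMP-responsive factor, moved in the same direction but by less as a list. Of 17 such genes 13 rose and 0 fell, with a median log2 difference of 0.31. Irs2, which encodes the insulin receptor substrate that sustains beta cells, had 35.6, 80.9 and 188.2 CPM in high-score libraries and 15.5, 35.9 and 106.7 CPM in low-score libraries. It was 2.23-fold higher (log2 1.16, SE 0.0595, adjusted p = 2.77e-43), and all 94 high-score libraries were above the low-score median. The repressor gene Nfil3 was 2.27-fold higher, the secreted peptide precursor gene Vgf 1.79-fold, Crem, which encodes a CREB relative, 1.60-fold, and Crtc2, a CREB coactivator gene, 1.21-fold. Creb1 itself was slightly lower (log2 -0.14, adjusted p = 1.66e-05).

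Of 16 tested SRF and actin genes 14 rose and 0 fell, with a median log2 difference of 0.24. Srf had medians of 78.5 CPM in high-score and 53.8 CPM in low-score libraries and was 1.44-fold higher (adjusted p = 1.61e-14). Zyx, which encodes a focal adhesion protein, was 1.36-fold and the beta-actin gene Actb 1.27-fold higher, and the counts of both were mostly fractional. The kinases, channels and receptors that carry the signal did not move as a list: 9 of 33 rose, 8 fell and the median was 0.01. These counts are near the 22.8% of all tested genes that rose and the 23.3% that fell. The members named next are therefore single genes and not a result about the list. Mapk14, the p38 kinase gene, was 1.18-fold higher. The receptors for GLP-1 and GIP, the incretin hormones, went apart. Glp1r had 37.9, 140 and 244.8 CPM in high-score libraries, against 107.2, 178.6 and 311.7 CPM in low-score libraries, and was 1.30-fold lower (log2 -0.38, SE 0.0552, adjusted p = 1.58e-09). Gipr was 1.15-fold higher (adjusted p = 0.00242), and the fatty acid receptor gene Ffar1 was 1.23-fold lower (adjusted p = 6.86e-07).

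Heat shock genes rose with the early genes. Of 17 heat shock genes 13 rose and 0 fell, with a median log2 difference of 0.20. The inducible genes stood far above that median. Hspa1a had 6.55, 61.2 and 428 CPM in high-score libraries and 2.14, 11.6 and 137.99 CPM in low-score libraries, a 3.82-fold rise (log2 1.93, SE 0.142, adjusted p = 3.55e-27). Its neighbour Hspa1b was 3.73-fold higher. All counts of both were fractional, so each level is less certain. Dnajb1, a co-chaperone gene, had medians of 66.5 CPM in high-score and 31.3 CPM in low-score libraries and was 2.19-fold higher. The co-chaperone gene Bag3 (1.60-fold) and the small heat shock protein gene Hspb1 (log2 0.84) rose as well.

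Of 18 tested genes of the NF-kB response, a list that includes genes known to rise during islet isolation, 15 rose and 0 fell, with a median log2 difference of 0.45. The cytokine gene Il6 had 7.57, 26.8 and 156.9 CPM in high-score libraries and 1.57, 11.3 and 76.2 CPM in low-score libraries, a 2.43-fold rise (adjusted p = 1.52e-16). The ranges overlapped widely, and 9 of 94 high-score libraries exceeded every low-score library in the deposited values. Nfkbiz (1.82-fold), Tnfaip3 (1.72-fold) and Nfkbia (1.56-fold), which encode regulators of NF-kB, rose too. The chemokine genes Cxcl1 (log2 0.78) and Cxcl2 (0.71) and the lipocalin gene Lcn2 (0.95) were higher. Outside these lists, Ptgs2, which encodes the inducible cyclooxygenase, was 2.52-fold higher with medians of 11.7 CPM in high-score and 4.86 CPM in low-score libraries, and the cytokine gene Lif was 2.17-fold higher. C2cd4a, a gene near a type 2 diabetes locus in humans, was 2.40-fold higher, and part of its counts were fractional.

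The unfolded protein response, p53 and NRF2 lists had members called in both directions, as did all tested genes, of which 22.8% rose and 23.3% fell. Of 20 unfolded protein response genes 1 rose and 6 fell, with a median log2 difference of 0.0030. In males alone 2 rose and 0 fell (median 0.060), and in females alone 1 rose and 6 fell (median -0.11). The share of all tested genes called either way was 29.9% in males alone and 33.6% in females alone. Edem1, which acts in the disposal of misfolded proteins, was 1.13-fold higher, whereas Pdia4 (1.15-fold), a disulfide isomerase gene, and Asns (1.1-fold), the asparagine synthetase gene, were lower. Of 13 p53 target genes 4 rose and 2 fell: the cell cycle inhibitor gene Cdkn1a was 1.36-fold higher and Sesn1, a sestrin gene, 1.26-fold lower. Of 10 NRF2 antioxidant genes 2 rose and 3 fell, among them the cystine transporter gene Slc7a11, 1.48-fold lower, whose counts were fractional throughout.

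**Figure D3:**
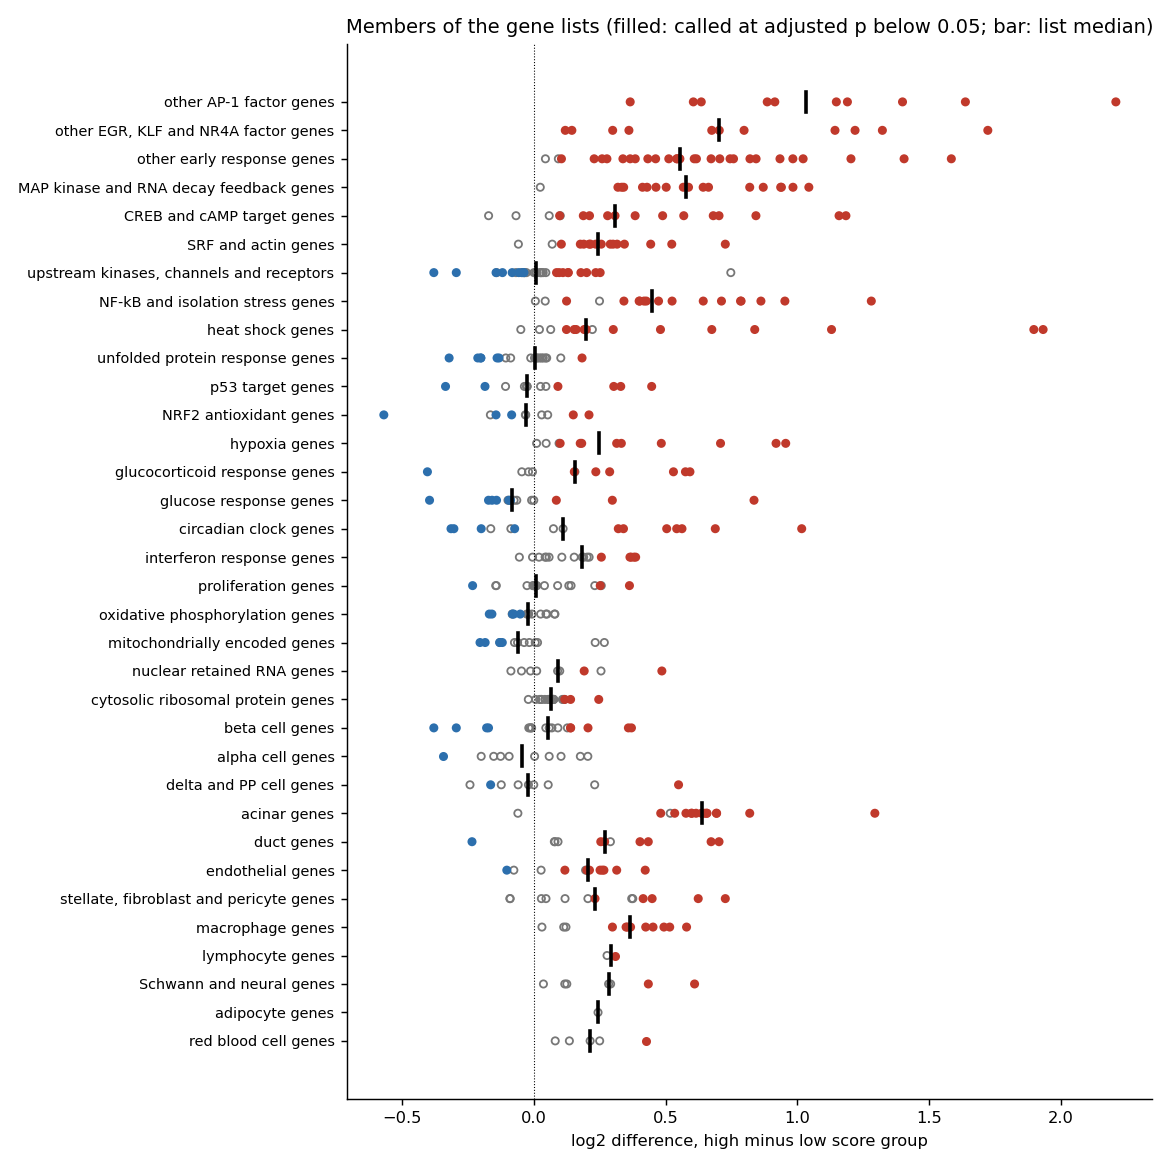
Log2 difference (high minus low score group, horizontal axis) of each tested member of the gene lists, filled where the adjusted p was below 0.05, with the list median as a bar. The AP-1 list has the highest median at 1.03, the unfolded protein response list lies at 0.0030, and the dotted line is the median of all tested genes.

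Hypoxia, glucose response, clock and glucocorticoid response genes changed in part, where 22.8% of all tested genes rose and 23.3% fell. Of 12 tested hypoxia genes 9 rose and 0 fell, with a median log2 difference of 0.25. Slc2a1, which encodes the glucose transporter GLUT1, had 33.7, 91.4 and 162.1 CPM in high-score libraries and 19.3, 48.1 and 103.5 CPM in low-score libraries, a 1.94-fold rise (adjusted p = 6.06e-32). Adm, the adrenomedullin gene, was 1.89-fold higher at a level near 1 CPM, and Egln3, an oxygen sensor gene, rose by 0.71. Of 14 glucose response genes 3 rose and 6 fell. Pfkfb3, which encodes an activator of glycolysis, was 1.78-fold higher, with medians of 43.9 CPM in high-score and 26.2 CPM in low-score libraries, while the desaturase gene Scd2 was 1.32-fold lower. Txnip, a gene strongly induced by glucose in beta cells, had medians of 127.5 CPM in high-score and 127.1 CPM in low-score libraries (log2 -0.07, SE 0.107, adjusted p = 0.646), and its sign changed between fits. Of 15 clock genes 7 rose and 4 fell. Bhlhe40 was 2.02-fold higher, with medians of 130.8 CPM in high-score and 67.8 CPM in low-score libraries, and Nr1d1 (1.61-fold), Npas2 (1.48-fold), Cry2 (1.42-fold) and Arntl (log2 0.54) rose, whereas Per3 (-0.32) and Tef (-0.30) fell. Of 11 glucocorticoid response genes 6 rose and 1 fell. The metallothionein genes Mt1 (1.51-fold) and Mt2 (1.49-fold) rose, and Tsc22d3, a classical glucocorticoid-induced gene, was 1.32-fold lower.

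The hormone genes differed little. Ins2 was 1.1-fold higher (adjusted p = 0.0116), with medians of 96362 CPM in high-score and 86676 CPM in low-score libraries, and Ins1 was 1.15-fold higher (adjusted p = 0.00142). Counts of both were fractional in every library, and neither was called among libraries with an acinar score below the median (adjusted p = 0.113 for Ins2 and 0.0543 for Ins1). The sign of Ins1 turned in band 4 alone (-0.0075). Gcg, the glucagon gene, had medians of 14453 CPM in high-score and 17754 CPM in low-score libraries (log2 -0.09, SE 0.0992, adjusted p = 0.456), and Sst, the somatostatin gene, 1133 and 977 CPM (log2 0.23, SE 0.107, adjusted p = 0.0676). Of 18 beta cell genes 5 rose and 4 fell, of 10 alpha cell genes 0 rose and 1 fell, and of 9 delta and PP cell genes 1 rose and 1 fell, with list medians of 0.05, -0.05 and -0.02. Among all tested genes 22.8% rose and 23.3% fell. Glp1r and Ffar1, given above with the receptors, are on the beta cell list too and are among its falls.

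Among the islet transcription factors, Neurod1 was 1.28-fold higher, with medians of 293.6 CPM in high-score and 225.3 CPM in low-score libraries (adjusted p = 1.99e-22). Mafa was higher with the band as covariate (log2 0.37, adjusted p = 0.0271), but it was not called by limma on the deposited values (adjusted p = 0.0951), where 45.7% of all genes were, and its sign turned in band 4 alone (-0.08) and with sex as the sole covariate (-0.05). Rfx6, which directs endocrine differentiation, had 25.2, 56.2 and 240.6 CPM in high-score libraries and 29.0, 85.2 and 205.2 CPM in low-score libraries, and was 1.54-fold lower (log2 -0.63, SE 0.0769, adjusted p = 1.74e-12). Mnx1 was 1.5-fold lower and Pdx1 1.13-fold lower (adjusted p = 0.00431). Pdx1 was not called with 6 cell type scores as covariates (adjusted p = 0.0964). The endocrine progenitor factor gene Neurog3 was 1.71-fold lower, with medians of 1.54 CPM in high-score and 2.42 CPM in low-score libraries and fractional counts in most libraries. The glucose transporter gene Slc2a2 was 1.13-fold lower (adjusted p = 0.0475), but it was not called on the deposited values (log2 -0.14), and with the 6 cell type scores its difference was -0.0081 (adjusted p = 0.947).

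The larger falls were few and smaller than the rises. Cyp4f39, a cytochrome P450 gene, had 0.142, 1.46 and 5.93 CPM in high-score libraries and 0.303, 3.72 and 21.8 CPM in low-score libraries, and was 2.35-fold lower (log2 -1.23, SE 0.149, adjusted p = 8.97e-13). Cnr1, the cannabinoid receptor gene, had 1.17, 7.79 and 34.3 CPM in high-score and 1.96, 15.7 and 49.6 CPM in low-score libraries, and was 1.84-fold lower. Cyp1a1, a target of the aryl hydrocarbon receptor, had 1.31, 18.5 and 53.4 CPM in high-score and 6.73, 31.01 and 99.2 CPM in low-score libraries, 1.82-fold lower. In each of these the groups overlapped, with 78 to 82 of 94 high-score libraries below the low-score median in the deposited values. Acvr1c, which encodes the activin receptor ALK7, was 1.75-fold lower, as were the calcium-dependent kinase gene Camk1g and the collagen gene Col6a6, the last with fractional counts. Kctd12b (1.69-fold), the fucosyltransferase gene Fut1 (1.66-fold), Klhl33 (1.65-fold), Abhd15 (1.65-fold), Trim66 (1.58-fold) and Pcp4 (1.54-fold), which encodes a calmodulin-binding peptide, complete the 15 largest together with Rfx6 and Neurog3. Col6a6 was no longer called with 6 cell type scores as covariates (adjusted p = 0.0872), nor were Fut1 (adjusted p = 0.292) and Pcp4 (adjusted p = 0.0961) among libraries with an acinar score below the median. Gdpd3 led them at 2.57-fold lower (log2 -1.36, SE 0.25), but its medians were 1.05 CPM in high-score and 1.24 CPM in low-score libraries, with highest values of 27.2 and 59.2 CPM. On the deposited values its difference was -0.40 (adjusted p = 0.0026 by limma), and 2.91% of its counts were whole.

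**Figure D4:**
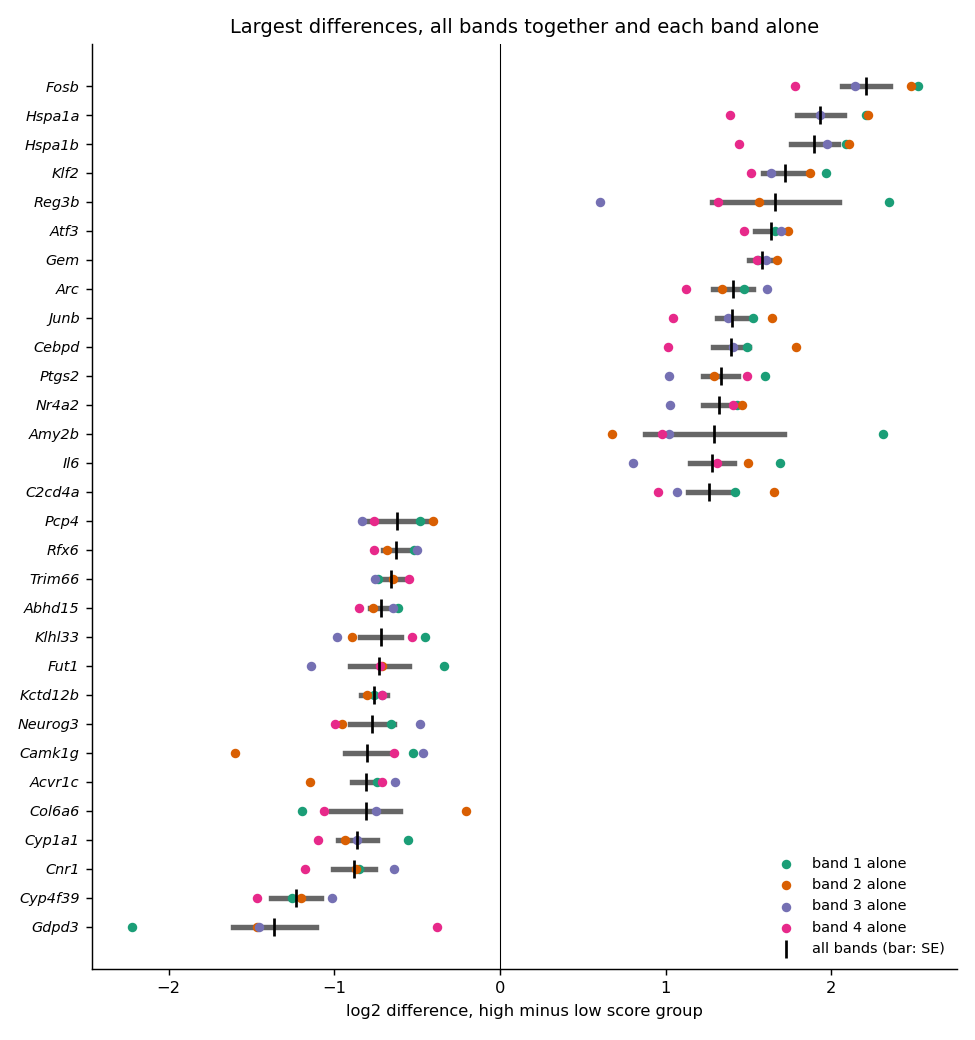
Log2 difference (high minus low score group, horizontal axis) of the 30 genes with the largest differences in either direction, in all bands together with its SE (bar) and in each number band alone (points). Fosb ranges from 1.78 in band 4 to 2.52 in band 1, and every point of each gene lies on the same side of 0, as the choice of these genes required.

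Markers of exocrine and other non-endocrine cells were also higher in the high-score group. Of 17 tested acinar genes 15 rose and 0 fell, with a median log2 difference of 0.64. In males alone 1 of the 17 rose (median 0.63) and in females alone 2 (median 0.64). The summed acinar level had a lowest, median and highest value of 219.2, 3644 and 59714 CPM in high-score libraries and 143.01, 3164 and 21063 CPM in low-score libraries, so the groups differed mainly at the high end, and no acinar gene was at 0 in both groups. The amylase gene Amy2b, with fractional counts, had medians of 44.2 CPM in high-score and 40.9 CPM in low-score libraries. Its fitted difference of 1.29 (adjusted p = 0.00729) fell to 0.24 (adjusted p = 0.779) in libraries with an acinar score below the median, and it was not called on the deposited values (0.61, adjusted p = 0.203). The protease genes Prss2 and Cela2a were 1.62-fold higher, and -0.05 and -0.01 on the log2 scale in those libraries. Reg3b, an acute-phase gene of acinar cells, was 3.17-fold higher, with medians of 1.93 CPM in high-score and 1.02 CPM in low-score libraries. Its difference was 1.1 with a low acinar score, and 2.31 in males alone and 0.48 in females alone, where it was not called (adjusted p = 0.577). The test of a difference in effect between the sexes did not call Reg3b.

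Of 13 macrophage genes 10 rose, of 13 endothelial genes 9 rose and 1 fell, of 11 tested duct genes 6 rose and 1 fell, and of 13 stellate, fibroblast and pericyte genes 5 rose. Their median log2 differences were 0.36, 0.20, 0.27 and 0.23. For the stellate, fibroblast and pericyte list, 7 genes rose in males alone (median 0.46) and 1 in females alone, where the median was -0.088. The difference between the sexes was not tested for this list. Cd14, a monocyte marker, was 1.49-fold higher, Flt1, a VEGF receptor gene of endothelium, 1.34-fold, and the pericyte gene Rgs5 1.36-fold. The duct keratin gene Krt8 was 1.32-fold higher and Krt7 1.18-fold lower. Summed macrophage genes had 45.9, 81.8 and 187.02 CPM in high-score libraries and 40.4, 71.1 and 117.9 CPM in low-score libraries, and summed endothelial genes 441, 658 and 1253 CPM in high-score and 414.2, 610 and 1140 CPM in low-score libraries. Of the lymphocyte list 2 of 12 genes were abundant enough to test and 1 of them, Ptprc, rose (1.24-fold). Of 7 Schwann and neural genes 2 rose, of 5 red blood cell genes 1 rose, and the 1 tested adipocyte gene did not pass. Over all tested genes the shares were 22.8% higher and 23.3% lower. The counts of the Schwann and red blood cell lists lie near them and are no result about those cells. The part of these cells in the differences of the other lists was not tested beyond the following fits.

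With 6 more covariates, the scores of the exocrine (acinar and duct), endothelial, stellate and immune (macrophage and lymphocyte) lists, 31.9% of the tested genes were called, 15.5% higher and 16.4% lower. The early lists kept most of their size: the median of the AP-1 list was 0.90, that of the EGR, KLF and NR4A list 0.61, that of the other early genes 0.45 and that of the feedback genes 0.42. Heat shock (0.17), NF-kB (0.35), CREB (0.31), hypoxia (0.25) and SRF and actin genes (0.16) stayed above 0. The acinar median fell to 0.06 and the macrophage median to 0.04, which is how the covariates work. Among libraries with an acinar score below the median, 45 high-score and 54 low-score, 27.7% of genes were called, the AP-1 median was 1.04 and the heat shock median 0.19, and the acinar median was -0.03. There Dusp1 was at 0.90, Gem at 1.62 and Hspa1a at 1.78 on the log2 scale.

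**Figure D5:**
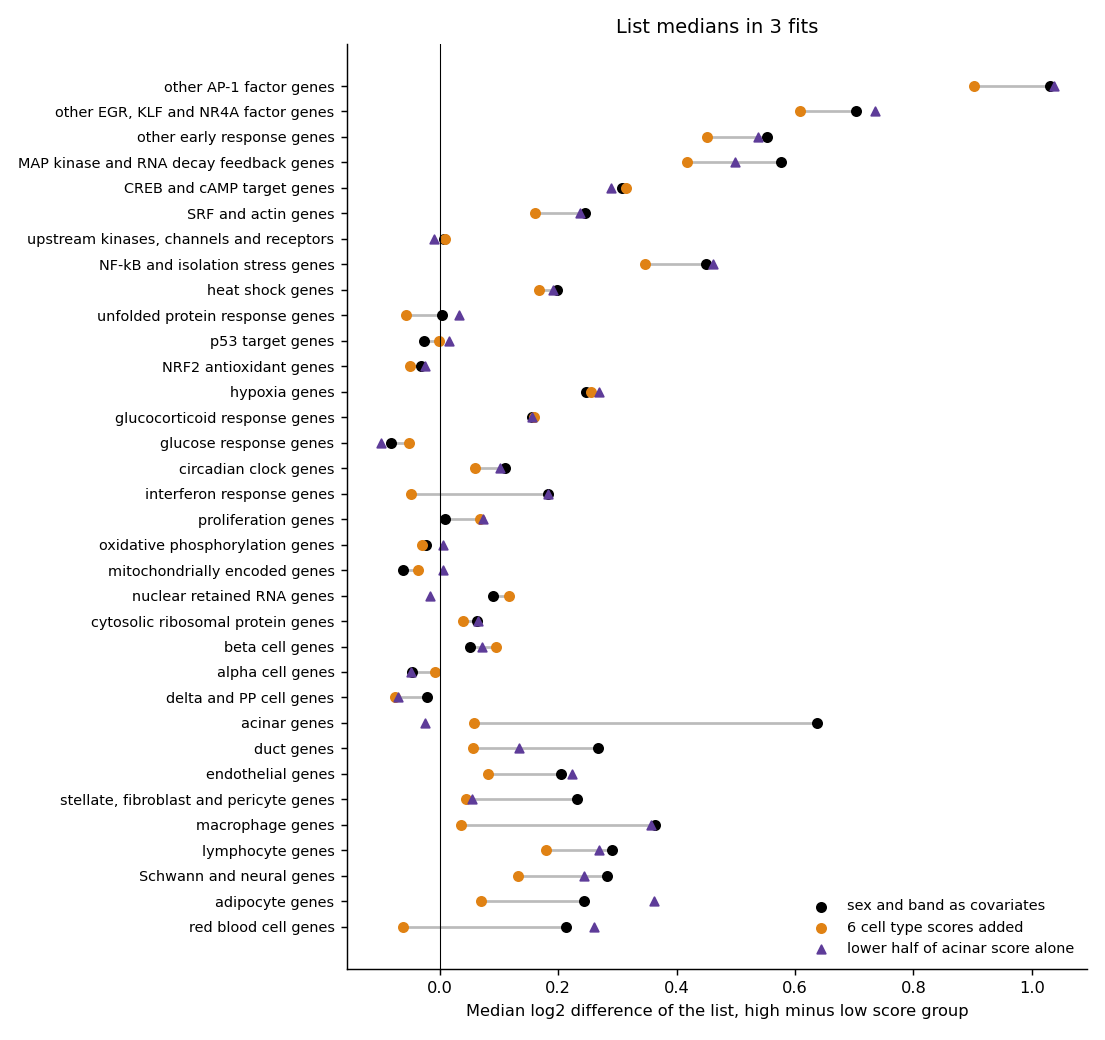
Median log2 difference (high minus low score group) of each gene list in 3 fits, with sex and band as covariates, with 6 cell type scores added, and among libraries with a low acinar score. The AP-1 median is 1.03, 0.90 and 1.04 in the 3 fits, while the acinar median is 0.64, 0.06 and -0.03.

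In the lists for interferon response, growth, energy and RNA handling, fewer than 1 in 2 of the tested members were called. The background was 22.8% of all tested genes higher and 23.3% lower. Of 17 interferon response genes 5 rose and 0 fell (median 0.18), and with the cell type covariates 1 rose and the median was -0.05. Irf1, an interferon regulatory factor gene, was 1.30-fold higher. Of 18 tested proliferation genes 2 rose and 1 fell (median 0.0092). In males alone 3 rose and 0 fell (median 0.31), and in females alone 1 rose and 6 fell (median -0.21). In either direction, 29.9% of all tested genes were called in males alone and 33.6% in females alone. The difference between the sexes was tested gene by gene and not for the lists. Of 16 oxidative phosphorylation genes 0 rose and 5 fell, and of 13 mitochondrially encoded genes 0 rose and 4 fell, with medians of -0.02 and -0.06. The mitochondrial gene mt-Nd5 was 1.15-fold lower. Of 23 cytosolic ribosomal protein genes 3 rose (median 0.06). Of 9 nuclear retained RNAs 2 rose, Neat1 1.40-fold and Malat1 1.14-fold, with medians for Neat1 of 1610 CPM in high-score and 1185 CPM in low-score libraries.

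Few genes passed the test of a difference in effect between the sexes. The interaction of sex with score group was called for 26 of 16904 genes (0.154%) by edgeR's quasi-likelihood test, 23 with a more positive effect in males (0.136%) and 3 in females (0.0177%). In males alone 29.9% of tested genes were called and in females alone 33.6%. Fosb rose by 2.02 in males and 2.46 in females on the log2 scale, Dusp1 by 1.03 in males and 0.84 in females, Gem by 1.63 in males and 1.56 in females, and Hspa1a by 1.90 in males and 1.97 in females. Glp1r was at -0.47 in males and -0.29 in females. Within bands, 651 genes were called in every band alone with the same sign, 475 of them higher. Gem rose by 1.56, 1.67, 1.60 and 1.55 in bands 1 to 4, Irs2 by 1.29, 1.22, 1.00 and 1.11, and Hspa1a by 2.21, 2.22, 1.93 and 1.39.

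Genes that differed by at least 1.5-fold in either direction had shorter spans and fewer exons at the median than all tested genes. Early list genes that rose by at least 1.5-fold count in both sets below, and how gene length enters the counts was not tested. The median genomic span was 8.74 kb with 4 exons for the rises and 14.1 kb with 4 exons for the falls, against 20.1 kb with 7 exons over all tested genes, and it was 5.41 kb with 4 exons for the early and feedback list genes. Among annotated 3′ UTRs, the AU-rich nonamer UUAUUUAUU, a known signal for rapid RNA decay, was present in 54 genes (15.2%) that rose by at least 1.5-fold, in 2 (5.71%) that fell by at least 1.5-fold, in 14 (20.3%) of the early and feedback genes, and in 1176 (8.26%) of all tested genes. UTR length was not matched in these shares.

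Promoter elements differed between the lists and the broader set. Promoters were found for 62.8% of the 449 genes with larger rises, 53 of 69 early and feedback genes and 11556 of all tested genes. The shares below are of these genes. A gene with several RefSeq starts counted if any of its promoters held the element, and the number of starts was not matched. The CRE was in 11.3% of the early and feedback genes, 3.55% of those with larger rises and 3.02% of all. The early genes with a CRE were Dusp1, Dusp8, Errfi1, Maff, Plk2 and Ppp1r15a. The EGR site was in 13.2%, 3.90% and 5.41% in the same order, and the GC box in 84.9%, 46.1% and 61.2%. The AP-1 site went the other way, with 1.89% of the early and feedback genes, 11.3% of those with larger rises and 4.23% of all. The TATA box was in 13.2%, 18.8% and 8.33%. Among genes that fell by at least 1.5-fold, 28 had a promoter and 17.9% of these held a TATA box. Its share was thus close in the larger rises and falls. In the first order again, the heat shock element core was in 5.66%, 9.57% and 6.14%, and the CArG box in 3.77%, 1.06% and 1.43%. These shares are descriptions of a short window, and no test was made of them.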

How the data were processed

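Libraries were prepared from poly(A) RNA of islets with ERCC control RNA added, per the labels' protocols. The authors deposited a table of estimated counts per gene (22180 genes, 67.7% of values whole) and a table of variance-stabilised log2 values. DESeq2 and GRCm38 are named in the submitters' processing notes, and the sources used here do not give the aligner or counter. Promoter coordinates and strands come from RefSeq, and gene spans and exon counts from GENCODE, not from the deposited gene table.

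The expected counts were rounded and analysed with edgeR 4.0.16 in R 4.3.3 (TMM, filterByExpr by group, quasi-likelihood F test, sex and number band as covariates, Benjamini-Hochberg adjustment, threshold 0.05, effect coded high minus low). Standard errors are the absolute log2 difference over the square root of F. CPM values of single genes are scaled by TMM, except those of the 6 score genes. The score gene and summed list values are scaled by the library total alone. DESeq2 1.42.0, limma 3.58.1 on the deposited values, limma-voom, other size factors, filters, covariates, scores and divisions of the libraries were tried as alternatives. The score rule names sex alone as covariate; the band was added because counts differ between bands.

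The members and the 34 gene lists were chosen with earlier results of these data known, so no list is independent evidence of its own direction. Because 6 genes are on more than 1 list, the lists are also not fully separate from each other. The text names the 15 largest called differences either way (mean CPM of 2 or more, 4 bands of like sign, no placeholder symbol), the up to 4 members per list of smallest adjusted p, preset genes, and the 5 genes with the smallest interaction p; others were chosen after their values were seen. Each library is 1 mouse, so p-values measure the spread between libraries. Mouse, islet preparation and library preparation cannot be told apart in that spread. A sample's total count limits the precision of genes near 1 CPM.

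Tested on simulated counts with 50 changed genes per fold size, the comparison recovered 42% of the 1.1-fold changes, 84% of the 1.25-fold, 88% of the 1.5-fold and 98% of the 2-fold changes. It made 5 false calls among the unchanged genes of the 16910 simulated. The simulated counts were drawn for each gene independently, and the groups were not chosen by simulated expression, unlike in the data. These figures therefore do not give the error rate of the calls reported above. Promoters are from RefSeq (GRCm38.p6), and gene spans, exons and 3′ UTRs from GENCODE mouse release 21.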

Additional observations from a re-analysis of the deposited data

Results flagged for a closer look

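The effect of the score group differed between the sexes, by a test of that difference itself, for 26 genes in edgeR's quasi-likelihood fit, and 5 with the smallest adjusted p are given here as the male minus the female log2 effect. The helicase gene Dhx35 had -0.22 (SE 0.0439, adjusted p = 0.00992), with -0.08 in males alone and 0.14 in females alone, and it was also called by limma on the deposited values (adjusted p = 0.0234). The gastrin gene Gast had 2.10 (adjusted p = 0.0224) at a mean of 0.714 CPM, with 1.48 in males and -0.39 in females. Gm2663 had 4.54 (adjusted p = 0.00992) and 1810009J06Rik 4.80 (adjusted p = 0.0328), both with mostly fractional counts and medians below 1 CPM in both groups. Gm5620, with fractional counts throughout, had 1.38 (adjusted p = 0.0224). These last 4 were not called on the deposited values. They do not stand for all 26 genes, of which 17 had a mean of 10 CPM or more and 11 were called in both fits. Both fits used the same libraries.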

How the results depend on the processing

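Of the 30 genes with the largest differences, 763 of 810 pairs of gene and alternative fit kept their direction and their call. A further 47 kept their direction without passing, and 0 reversed. The fits of bands 1 to 4 alone are among these, and the 30 genes were chosen for like sign in them, so none could reverse there. The other fits used the same or overlapping libraries. Over all 170 named genes, 4580 pairs held 4044 that kept direction and call and 490 that no longer passed. There were also 19 that passed newly and 27 reversals, whose causes were not tested. The number of genes called was 7789 (3847 higher, 3942 lower). It was 5030 (2508 and 2522) in males alone, 4681 (2252 and 2429) among libraries with an acinar score below the median, a setting chosen after seeing the data, and 2011 (1155 and 856), 2361 (1251 and 1110), 2579 (1296 and 1283) and 1890 (1133 and 757) in bands 1 to 4 alone, all with fewer libraries. With sex as the sole covariate it was 6187, with 6 cell type scores 5394, and without band 4, also chosen after seeing the data, 6961. The interaction count was 11 by limma on the deposited values and 26 in edgeR.

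The reversed values are given here on the log2 scale. In females alone Mki67 was at -0.0444, Txnip at 0.0528, Gm2663 at -0.513, Gast at -0.386, Gm5620 at -0.484 and 1810009J06Rik at -1.19, and in males alone Dnajc3 was at 0.0037 and Dhx35 at -0.0787. In band 4 alone Ins1 was at -0.0075, Kcnj3 at 0.0332, Etv1 at 0.187, Gcg at 0.246, Sst at -0.0193 and Mafa at -0.0771. In band 1 alone Gcg was at 0.0339, Txnip at 0.446, Gast at -0.485 and 1810009J06Rik at -0.782, in band 2 alone Sst was at -0.0056, and in band 3 alone Hba-a2 was at -0.101. With an acinar score below the median Prss2 was at -0.0461 and Cela2a at -0.0081. Without Zfp36 in the score Txnip was at 0.0564, with the top and bottom 1 in 3 libraries at 0.039, and without band 4 at 0.0137. Without Nr4a1 in the score Gm5620 was at -0.0173, and with sex as the sole covariate Mafa was at -0.0461. No paired analysis was possible because each mouse number occurs once and the groups share no numbers.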
